A study of Schizosaccharomyces pombe with 6 samples.

Results

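The genes described here are the fission yeast (Schizosaccharomyces pombe) genes that carry the classical names of amino acid biosynthesis loci. They were chosen by name from the deposited table, as coding features called his, arg, lys, leu, ilv, trp, thr, aro, ser or pro followed by only 1 or 2 digits. This gave 42 of 7001 listed features and 42 of 5166 coding ones: 6 his, 10 arg, 7 lys, 3 leu, 3 ilv, 4 trp, 1 thr, 3 aro, 3 ser and 2 pro genes. The rule itself uses no expression value, but it was set with earlier results of these data known. RefSeq names a biosynthetic enzyme or an enzyme subunit for 40 of them, a factor that activates such an enzyme for lys7, and an inositol polyphosphate kinase for arg82, which is a member by its name alone.

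RNA of vegetative cells was sequenced from 3 strains with 2 libraries each, mug174Δ (deletion of mug174), red1Δ (labelled as a red1 mutation) and WT. Mug174 is a protein of nuclear foci, and Red1 is a zinc finger protein of a nuclear complex that hands RNAs, meiotic ones among them, to the exosome. All strains grew untreated at 32 °C in YES, a rich medium of 0.5% yeast extract and 3% glucose with 75 mg/L each of adenine, histidine, leucine and uracil. The labels do not say which of the study's strains were sequenced. Several of its mug174Δ strains carry leu1 or his2 marker mutations and others none, and the genotype of the sequenced ones was not found in the sources used here. The sequencing of mug174Δ and WT is described as independent experiments, without a word on how the cultures were split, and for red1Δ no such statement was found. The spread that enters each p-value is that of 2 libraries a strain and may be in part technical.

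Budding and fission yeasts make all amino acids of their proteins from central metabolites and ammonia, and each pathway is a chain of enzymes encoded at scattered loci. Histidine is built from ATP and a sugar phosphate, and arginine from glutamate through ornithine and citrulline. Lysine in fungi comes through aminoadipate and saccharopine. Leucine branches from the pathway of valine and isoleucine, and tryptophan, phenylalanine and tyrosine share the route to chorismate. In budding yeast many of these genes are under general amino acid control by the transcription factor Gcn4, while in fission yeast the GATA factor Fil1 has that part.

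Expression is given in RPKM, reads scaled to the length of the coding sequence and to the counted reads of the library, so that levels can be set beside each other between genes. Libraries held between 16565908 and 18627129 counted reads. The label check was clear, with 1 and 0 reads on mug174 in the mug174Δ libraries against 739 and 657 in WT, and 1 and 2 reads on red1 in the red1Δ libraries against 2457 and 2117 in WT. The red1Δ libraries lay apart from each other on the first principal component, at 28.4 for replicate 1 and 43.8 for replicate 2, against -31.6 and -31.1 in WT. Of the vegetative markers act1 and cdc13 were present and adh1 was listed at 0 in every library, and the 7 markers of sexual differentiation and meiosis summed to 630 to 720 RPKM in red1Δ and 53.6 to 64.6 RPKM in mug174Δ, against 36.8 to 43.4 RPKM in WT. The part of these differences in the results below was not tested. In bulk RNA a smaller share of cells that express a gene and less of its RNA per cell cannot be told apart.

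The genes were scattered over the genome, with 16 members on chromosome I, 22 on II and 4 on III, and 10 of the 42 had introns in the coding region. Of the 42, 3 members had no reads at all, namely his5 (imidazoleglycerol-phosphate dehydratase), lys9 (a saccharopine dehydrogenase) and arg82, each listed at 0 RPKM in all 6 libraries. Each lies wholly within a listed non-coding RNA of the opposite strand. A like pattern held across the table for overlap with any listed feature on either strand. There 339 of 341 coding features covered over their whole length were at 0 in every library, against 1 of 4267 features that were not covered. The fourth member covered over its whole length, arg4 (the large subunit of the arginine-specific carbamoyl-phosphate synthase), was listed at only 2.99 to 6.63 RPKM, and 4 more members were covered in part, lys12 over 85.5% of its coding length, ser2 over 83.5%, arg12 over 15.9% and trp2 over 13.2%. A level of 0 therefore says nothing of the expression of his5, lys9 and arg82. The levels of arg4, lys12 and ser2 may be understated as well. No base of arg4 is free of overlap, and its values rest on the 174 to 399 reads that were counted. Divided by the bases free of overlap alone, the reads of lys12 gave 209 to 258 RPKM and those of ser2 186 to 462 RPKM. The remaining 39 members passed the filter of at least 1 RPKM in 2 or more libraries.

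Levels differed widely between members. In WT the highest was ilv5 with 2999 ± 1.91 RPKM (SD, n = 2), followed by lys4 with 834 ± 78.4, leu1 with 819 ± 24.9 and his1 with 679.6 ± 0.728 RPKM. The SDs of lys4 and leu1 overlap, so that their order is not resolved. The lowest of the genes free of overlap were arg7 with 36.9 ± 3.73, thr1 with 41.4 ± 1.34 and lys7 with 42.2 ± 2.88 RPKM. The enzymes of 1 pathway were thus not made from equal amounts of RNA. In the arginine pathway arg1 and arg12 stood at 635 and 621 RPKM in WT while arg6, the acetylglutamate synthase that opens the pathway, had 96.2 ± 4.51 RPKM. RefSeq names both arg7 and arg41 argininosuccinate lyases, whose proteins were identical at 72.5% of aligned positions. Of this pair arg41 was the more abundant, at 161 ± 7.67 RPKM in WT against 36.9 RPKM for arg7.

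**Figure D1:**
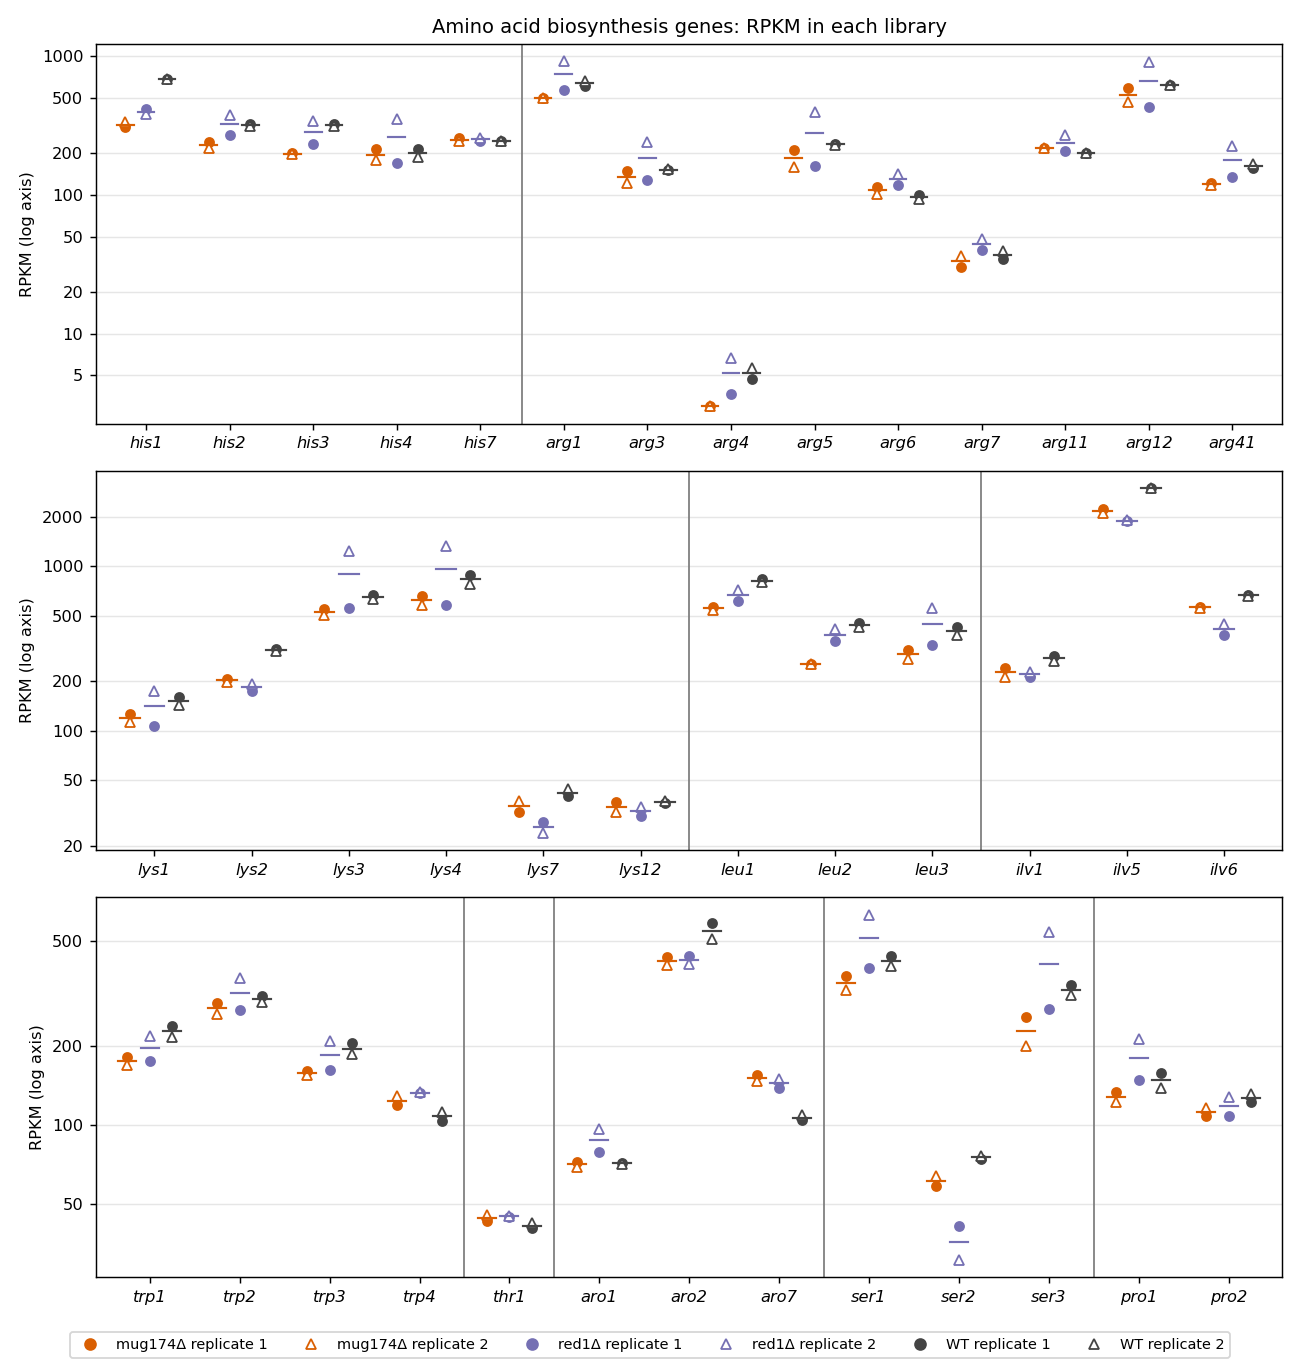
RPKM of the 39 members with reads in each of the 6 libraries (log axis), by pathway; circles are replicate 1, triangles replicate 2 and dashes the mean of a strain. In mug174Δ most members lie below WT with close replicates, and in red1Δ replicate 2 stands above replicate 1 for arg5, lys3, lys4, arg12 and his4 but not for ilv5, his1 or thr1.

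As a group the genes were lower in mug174Δ than in WT. The 39 members summed to 11306 and 10522 RPKM in the mug174Δ libraries (79.5% and 74.0% of the WT mean), against 14459 and 13970.5 RPKM in WT. Both mug174Δ libraries lay below both WT libraries for 29 of 39 members, while 20.3% of all tested features did so, and above them for 5, against 54.9% of all features. The median log2 fold change of the members was -0.29 where that of all tested features was 0.18, and 37 of the 39 members fell below the median of all features. RPKM carries no scaling factor between libraries. After division by median ratios the median of all features was 0.01 and that of the members -0.47.

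In the limma fit (adjusted p under 0.05 over 5949 features), 7 members were lowered and 1 was raised in mug174Δ, where 5.53% of all features were lowered and 19.8% raised. The 7 were his1, his3, leu1, leu2, lys2, ilv5 and aro2, and the raised gene was aro7. With median ratio scaling 13 members were lowered and 1 raised, against 10.1% and 9.77% of all features. A fit of only mug174Δ and WT, in which the red1Δ libraries do not widen the spread, lowered 21 and raised 1 (10.8% and 31.4% of all features), and leaving out either red1Δ library gave the same counts. The 14 added genes were arg1, arg4, arg41, his2, ilv1, ilv6, leu3, lys1, lys3, lys4, ser2, ser3, trp1 and trp3. The calls were mostly lost when a library of either strain was left out. Without mug174Δ replicate 1 limma called 0 raised and 0 lowered (1 and 8 members at an unadjusted p under 0.05), and without mug174Δ replicate 2, WT replicate 1 or WT replicate 2 it called 0 raised and 1 lowered, his1 (1 raised and 5 to 8 lowered unadjusted). Over all features these fits called 14 to 70 raised and 13 to 24 lowered. In them the lone library is assumed to vary like the other strains. All 8 genes kept their direction in each of the 15 alternatives.

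In red1Δ the picture was mixed and depended on the library. The members summed to 10797 RPKM in replicate 1 and 15295 RPKM in replicate 2, so that replicate 1 lay at 76.0% and replicate 2 at 108% of the WT mean. In the fit 8 members were lowered (his1, lys2, lys7, ilv1, ilv5, ilv6, ser2 and aro2) and 3 raised (aro7, arg6 and trp4), where 7.33% of all features were lowered and 48.4% raised. Both red1Δ libraries lay below both WT libraries for 11 members, against 13.3% of all features, and above them for 8, against 66.6%. The median log2 fold change was 0.04 for the members and 0.35 for all tested features, and 36 of 39 members fell below the median of all features. With median ratio scaling, which brought the median of all features to -0.0040, 16 members were lowered and 0 raised (19.0% and 18.1% of all features), or 20 and 0 at an unadjusted p under 0.05. Voom on the whole reads without that scaling called the same 11 members as the fit on RPKM.

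Many calls depended on which red1Δ library was used. Without replicate 1 the fit raised 17 members and lowered 7 (52.8% and 9.6% of all features), and without replicate 2 it raised 1 and lowered 14 (39.2% and 7.84%). Without WT replicate 1 limma called 0 raised and 5 lowered (2 and 6 unadjusted), and without WT replicate 2 it called 1 and 4. Both of these fits lost arg6, trp4, aro2, ilv1 and ilv5, the first also aro7 and the second also lys7. The calls of aro2 and trp4 were lost without either mug174Δ library as well. The lowering of his1, lys2, ilv6 and ser2 was called in all 15 alternatives, red1Δ with either library alone included.

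**Figure D2:**
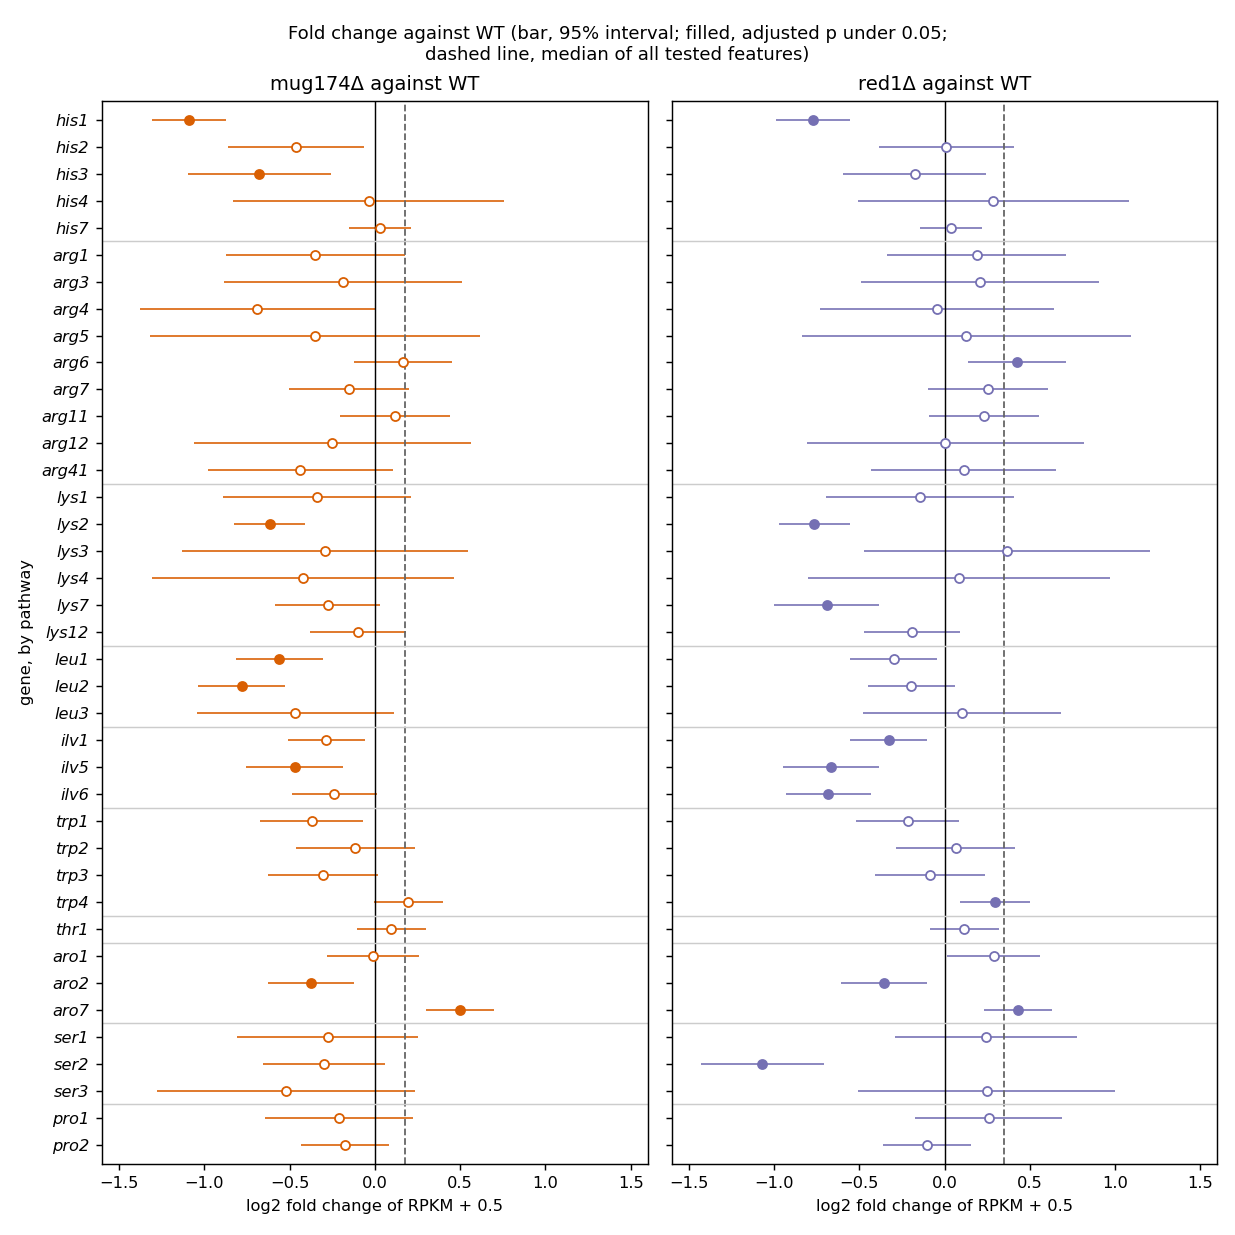
Log2 fold change of each member in mug174Δ (left) and red1Δ (right) against WT on the log2(RPKM + 0.5) scale, with 95% intervals from the limma fit; filled points have an adjusted p under 0.05 and the dashed line is the median of all tested features (0.18 and 0.35). his1, lys2, ilv5 and aro2 are filled and left of 0 in both panels and aro7 is filled and right of 0 in both.

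The 2 comparisons share the WT libraries, so their resemblance is not independent evidence. Side by side, his1, lys2, ilv5 and aro2 were called lower against WT in each, and aro7 was called higher in each. The difference between the mutants was tested in its own right. In red1Δ against mug174Δ, leu2 was higher and ser2 and ilv6 were lower, which makes 1 raised and 2 lowered members where 16.1% of all features were raised and 3.28% lowered. With median ratio scaling these were 1 and 4 (7.38% and 5.65% of all features).

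**Figure D3:**
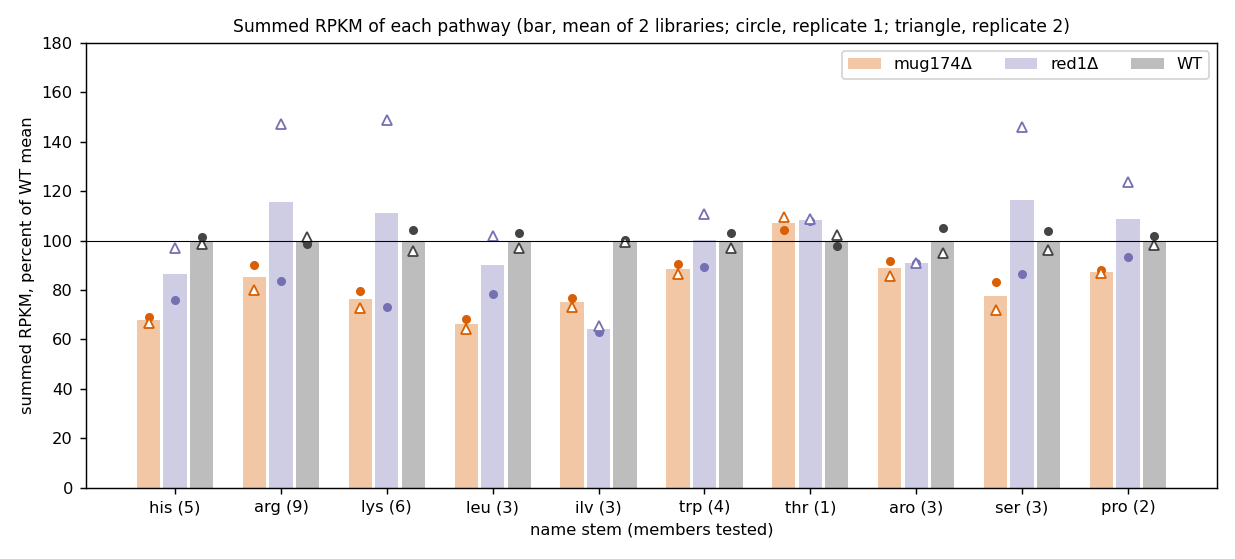
Summed RPKM of each pathway's tested members in each library as a percent of the WT mean; bars are the mean of 2 libraries, circles replicate 1 and triangles replicate 2. The ilv sum is below WT in both mutants (73.2 to 76.9% in mug174Δ and 62.8 to 65.4% in red1Δ), while the arg, lys and ser sums of red1Δ lie at 83.8, 73.3 and 86.5% in replicate 1 and at 147, 149 and 146% in replicate 2.

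The histidine genes were led by his1, which encodes ATP phosphoribosyltransferase, the enzyme that commits ATP to the pathway. It had 306 and 333 RPKM in mug174Δ and 415 and 382 RPKM in red1Δ, against 680.1 and 679 RPKM in WT. No mutant library reached the WT level. The log2 fold change was -1.09 ± 0.09 (SE, adjusted p = 0.0040) in mug174Δ and -0.77 ± 0.09 (adjusted p = 0.0023) in red1Δ. Over the 15 alternatives it ran between -1.26 and -1.03 in mug174Δ, where only the fit without mug174Δ replicate 1 lost the call (adjusted p between 0.0016 and 0.062), and between -1.13 and -0.71 in red1Δ.

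Farther down the pathway his3, the histidinol-phosphate aminotransferase, had 199.9 and 195 RPKM in mug174Δ and 232 and 338 RPKM in red1Δ, against 323 and 311 RPKM in WT. It was lowered in mug174Δ (log2 fold change -0.68 ± 0.17, adjusted p = 0.037, between 0.0025 and 0.16 over the alternatives), and in red1Δ its libraries lay on either side of WT. The last enzyme, histidinol dehydrogenase, is the product of his2, which stood at 242 and 219 RPKM in mug174Δ against 322 and 312 RPKM in WT without passing the test (adjusted p = 0.084). The bifunctional cyclohydrolase and pyrophosphohydrolase gene his7 was the steadiest of the stem, with 256 and 244 RPKM in mug174Δ and 246 and 256 RPKM in red1Δ, against 244 and 246 RPKM in WT. Its log2 fold change was 0.03 in mug174Δ (95% interval -0.15 to 0.21) and 0.04 in red1Δ (-0.14 to 0.22), but with median ratio scaling it was -0.32 and called lower in red1Δ. The imidazoleglycerol-phosphate synthase gene his4 ranged from 169 to 350 RPKM in red1Δ. So 2 of 5 tested his genes were lowered in mug174Δ and 1 of 5 in red1Δ, where 5.53% and 7.33% of all features were lowered. With median ratio scaling 3 were lowered in each mutant (10.1% and 19.0% of all features). With only mug174Δ and WT fitted his2 was called lower too, where 10.8% of all features were lowered. Without a mug174Δ or WT library his3 lost its call in mug174Δ. In red1Δ his3 had a log2 fold change of -0.44 without replicate 2 and 0.10 without replicate 1. The stem summed to 1216 and 1168 RPKM in mug174Δ and 1331 and 1704 RPKM in red1Δ, against 1782 and 1733 RPKM in WT.

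For each of the 3 branched-chain ilv genes, both libraries of either mutant lay below both WT libraries. Over all features this held for 20.3% in mug174Δ and 13.3% in red1Δ. Limma called all 3 lowered in red1Δ but only ilv5 in mug174Δ, where 7.33% and 5.53% of all features were lowered. Acetolactate synthase, the first enzyme shared by the valine and isoleucine routes, has its catalytic subunit from ilv1 and its regulatory subunit from ilv6. The reductoisomerase that follows is encoded by ilv5. The most abundant member of all, ilv5, had 2219 and 2110.3 RPKM in mug174Δ and 1878 and 1902 RPKM in red1Δ, against 2999.9 and 2997 RPKM in WT. Its log2 fold change was -0.47 ± 0.12 in mug174Δ (adjusted p = 0.034, between 0.0054 and 0.21 over the alternatives) and -0.67 ± 0.12 in red1Δ (adjusted p = 0.0063, between 0.0020 and 0.054).

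The regulatory subunit gene ilv6 had 384 and 449 RPKM in red1Δ and 569.9 and 559.6 RPKM in mug174Δ, against 672 and 660.04 RPKM in WT. It was lowered in red1Δ by 0.68 ± 0.10 on the log2 scale (adjusted p = 0.0042), and was also lower in red1Δ than in mug174Δ (log2 fold change -0.44 ± 0.10, adjusted p = 0.035). The catalytic subunit gene ilv1 had 214 and 227 RPKM in red1Δ and 241 and 214 RPKM in mug174Δ, against 286 and 268 RPKM in WT, and was called lower in red1Δ only (log2 fold change -0.33 ± 0.09, adjusted p = 0.027). For ilv1 a difference between the mutants was not shown, as it was not called in red1Δ against mug174Δ (95% interval -0.27 to 0.18). Scaled by median ratios, 3 of 3 were lowered in each mutant, against 10.1% of all features in mug174Δ and 19.0% in red1Δ. In mug174Δ 3 of 3 were also lowered without either red1Δ library, and without a mug174Δ or WT library 0 were. In red1Δ 1 of 3, ilv6, was lowered without either WT library.

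Leucine departs from this route at 2-isopropylmalate synthase (leu3), followed by the dehydratase (leu2) and the dehydrogenase (leu1). The dehydratase gene leu2 had 255.3 and 255.4 RPKM in mug174Δ and 351 and 419 RPKM in red1Δ, against 452 and 427 RPKM in WT. The mug174Δ libraries were alike and below every other library. It was lowered in mug174Δ (log2 fold change -0.78 ± 0.10, adjusted p = 0.0094), not called in red1Δ against WT (-0.19, 95% interval -0.45 to 0.06), and higher in red1Δ than in mug174Δ by 0.59 ± 0.10 (adjusted p = 0.019). The dehydrogenase gene leu1 had 568 and 542 RPKM in mug174Δ and 619 and 716 RPKM in red1Δ, against 837 and 802 RPKM in WT, and was lowered in mug174Δ (-0.56 ± 0.10, adjusted p = 0.017). In red1Δ it lay just outside the threshold, with -0.30 ± 0.10 (adjusted p = 0.0502). For leu3 the red1Δ libraries had 335 and 561 RPKM, on either side of the WT values of 427 and 382 RPKM. In mug174Δ 5.53% of all features were lowered in the fit of all 6 libraries. With only mug174Δ and WT fitted all 3 leu genes were lowered in mug174Δ (10.8% of all features). Without a mug174Δ or WT library the calls were lost. In red1Δ leu1 and leu2 were called lower with median ratio scaling (19.0% of all features). Without replicate 2 the log2 fold changes in red1Δ were -0.40 for leu1, -0.32 for leu2 and -0.27 for leu3. Without replicate 1 they were -0.19, -0.07 and 0.47.

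In red1Δ lys2 and lys7 were lowered while lys3 and lys4 differed widely between libraries. Homocitrate synthase, the entry enzyme, is the product of lys4, which had 658 and 586 RPKM in mug174Δ and 583 and 1338 RPKM in red1Δ, against 889 and 778 RPKM in WT. The red1Δ libraries stood 2.29-fold apart, and lys4 was not called against WT (log2 fold change 0.09 ± 0.36). It was called lower without red1Δ replicate 2 (-0.51) and higher without replicate 1 (0.68). The next enzyme, homoaconitate hydratase, is made from lys2, which had 208 and 199 RPKM in mug174Δ and 174 and 194 RPKM in red1Δ, against 316 and 308 RPKM in WT. It was lowered in mug174Δ (-0.62 ± 0.08, adjusted p = 0.0097) and in red1Δ (-0.76 ± 0.08, adjusted p = 0.0022). The call in mug174Δ was lost without either of its libraries or either WT library (adjusted p between 0.0030 and 0.088 over the alternatives).

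The phosphopantetheinyl transferase gene lys7, whose product activates the aminoadipate-semialdehyde dehydrogenase encoded by lys1, had 28.0 and 24.0 RPKM in red1Δ and 32.2 and 37.3 RPKM in mug174Δ, against 40.1 and 44.2 RPKM in WT. It was lowered in red1Δ (-0.69 ± 0.13, adjusted p = 0.0072). lys1 itself had 107 and 176 RPKM in red1Δ around a WT of 161 and 143 RPKM. The saccharopine dehydrogenase gene lys3 had 562 and 1246 RPKM in red1Δ, against 668 and 629.8 RPKM in WT, and lys12 (homoisocitrate dehydrogenase) had 30.3 to 37.5 RPKM over all libraries on 571 to 730 reads and was not called. Thus 1 of 6 tested lys genes was lowered in mug174Δ and 2 of 6 in red1Δ, where 5.53% and 7.33% of all features were lowered. With only mug174Δ and WT fitted, lys1, lys3 and lys4 were called lower in mug174Δ too, which made 4 of 6 (10.8% of all features). In red1Δ lys12 joined with median ratio scaling, which made 3 of 6 (19.0% of all features). Without replicate 2 the log2 fold changes in red1Δ were -0.50 for lys1, -0.51 for lys4 and -0.21 for lys3. Without replicate 1 they were 0.21, 0.68 and 0.94.

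Of the 9 tested arginine genes limma called 0 lower in either mutant. Over all features 5.53% were lowered in mug174Δ and 7.33% in red1Δ, so that 0 of 9 is near these shares. arg4, covered over its whole length by other features, had an unadjusted limma p of 0.0497 in mug174Δ. In red1Δ 1 of the 9 was called higher, against 48.4% of all features. With only mug174Δ and WT fitted, arg1, arg4 and arg41 were called lower in mug174Δ (10.8% of all features). In red1Δ the log2 fold changes depended on the library, and replicate 2 was the higher for all 9. Without replicate 2 they were -0.53 for arg12, -0.52 for arg5 and -0.25 for arg3. Without replicate 1 they were 0.54, 0.77 and 0.67. The gene called higher was arg6 in red1Δ, with 118 and 141 RPKM there and 115 and 101 RPKM in mug174Δ, against 99.3 and 93.0 RPKM in WT (log2 fold change 0.42 ± 0.12, adjusted p = 0.025). The call was lost with median ratio scaling (0.06), without red1Δ replicate 2 and without either WT library. The most abundant arg gene over all libraries, arg1 (acetylornithine aminotransferase), had 499.7 and 497 RPKM in mug174Δ and 570.3 and 917 RPKM in red1Δ, against 609.99 and 660.5 RPKM in WT. The argininosuccinate synthase gene arg12 had 585 and 466 RPKM in mug174Δ and 429.9 and 902 RPKM in red1Δ, against 619 and 622 RPKM in WT.

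The red1Δ libraries differed by more than 0.5 on the log2 scale for 6 of the 9 arg genes (arg1, arg12, arg5, arg3, arg4 and arg41). Of these arg4 is covered over its whole length by other features and had only 223 and 399 reads in red1Δ. The small subunit of carbamoyl-phosphate synthase, arg5, had 162 and 396 RPKM in red1Δ, arg3 (ornithine carbamoyltransferase) 128 and 242, and arg41 135 and 224 RPKM. Less apart were arg6 at the start of the pathway, arg11, which encodes the acetylglutamate kinase and reductase, with 205 and 269.7 RPKM, and arg7 with 40.2 and 48.3 RPKM. In mug174Δ, 7 of the 9 had a log2 fold change below 0, with a median of -0.25 and a range from -0.69 (arg4) to 0.16 (arg6). The value of arg4 rests on 174 and 194 reads in mug174Δ and 299 and 341 in WT. The 95% interval of arg5 in mug174Δ reached from -1.32 to 0.62.

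In the aromatic pathways the genes moved apart. Chorismate mutase, which turns chorismate towards phenylalanine and tyrosine, is the product of aro7, and its RNA was the one raised in both mutants. It had 155 and 146 RPKM in mug174Δ and 138 and 149.6 RPKM in red1Δ, against 104 and 109 RPKM in WT. The log2 fold change was 0.50 ± 0.08 in mug174Δ (adjusted p = 0.013) and 0.43 ± 0.08 in red1Δ (adjusted p = 0.0079). With median ratio scaling it was 0.33 and still called in mug174Δ but 0.07 and not called in red1Δ. Before that scaling 19.8% of all features were raised and 5.53% lowered in mug174Δ, and 48.4% and 7.33% in red1Δ. The median log2 fold changes of all features were then 0.18 and 0.35. Chorismate synthase, the step before, is encoded by aro2, which had 436 and 404 RPKM in mug174Δ and 439 and 409.9 RPKM in red1Δ, against 582 and 507 RPKM in WT. It was lowered by 0.37 ± 0.10 in mug174Δ (adjusted p = 0.046) and by 0.36 ± 0.10 in red1Δ (adjusted p = 0.028), both close to the threshold and lost in 6 of 15 alternatives each. aro1, the multifunctional enzyme ahead of it, had 69.2 to 96.3 RPKM over all libraries and was not called in either, but was called higher in red1Δ without its replicate 1.

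Of the tryptophan genes trp4, for phosphoribosylanthranilate transferase, had 132 and 133 RPKM in red1Δ and 118 and 129 RPKM in mug174Δ, against 103 and 112 RPKM in WT. It was called higher in red1Δ (0.30 ± 0.08, adjusted p = 0.027), a direction that median ratio scaling turned to -0.066 without a call. In red1Δ 48.4% of all features were raised, and the median log2 fold change of all features was 0.35. The most abundant was tryptophan synthase, trp2, with 291 and 264 RPKM in mug174Δ and 273 and 361 RPKM in red1Δ, against 309 and 292 RPKM in WT. Neither it nor the anthranilate synthase components trp1 and trp3 was called. trp1 and trp3 had log2 fold changes of -0.37 and -0.30 in mug174Δ, with adjusted p of 0.074 and 0.13. Both were called lower in each mutant with median ratio scaling, where 10.1% of all features were lowered in mug174Δ and 19.0% in red1Δ. With only mug174Δ and WT fitted both were called lower in mug174Δ too (10.8% of all features). In red1Δ trp1 was called lower without replicate 2.

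Of the 3 serine genes, limma called only ser2, and that in red1Δ, where 7.33% of all features were lowered. With only mug174Δ and WT fitted, ser2 and ser3 were called lower in mug174Δ (10.8% of all features). In red1Δ the log2 fold changes of ser1 and ser3 were 0.58 and 0.73 without replicate 1. Without replicate 2 they were -0.09 and -0.24. The phosphatase of the last step, ser2, had 41.2 and 30.7 RPKM in red1Δ and 58.3 and 63.9 RPKM in mug174Δ, against 74.0 and 76.2 RPKM in WT. It was lowered in red1Δ against WT (-1.07 ± 0.15, adjusted p = 0.0035) and against mug174Δ (-0.77 ± 0.15, adjusted p = 0.023). These values rest on 639 and 476 reads in red1Δ and 1216 and 1185 reads in WT, on a coding sequence that lies largely within the non-coding RNA SPNCRNA.1470 of the opposite strand, which itself had 0.740 to 4.67 RPKM. The level of SPNCRNA.1470 may be understated as well, since it shares the overlap with ser2. Whether that overlap bears on ser2 was not tested. In the same red1Δ libraries ser1, the aminotransferase of the middle step, had 394 and 629 RPKM, against 439.6 and 402 RPKM in WT, and ser3, the dehydrogenase that opens the pathway, had 276 and 539.6 RPKM, against 339 and 312 RPKM. Replicate 2 was thus the higher for ser1 and ser3 and the lower for ser2.

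The remaining stems held few genes. Homoserine kinase, thr1, had 43.2 and 45.3 RPKM in mug174Δ and 44.7 and 45.0 RPKM in red1Δ, against 40.4 and 42.3 RPKM in WT, with log2 fold changes of 0.10 (95% interval -0.11 to 0.30) and 0.12 (-0.09 to 0.32). For proline, the glutamyl phosphate reductase gene pro1 had 133 and 122 RPKM in mug174Δ and 147 and 212 RPKM in red1Δ, against 158 and 138 RPKM in WT, and the glutamate kinase gene pro2 had 108 and 116 RPKM in mug174Δ and 108 and 128 RPKM in red1Δ, against 122 and 131 RPKM. None of these was called. After median ratio scaling pro2 was called lower in each mutant, where 10.1% of all features were lowered in mug174Δ and 19.0% in red1Δ. In red1Δ the log2 fold change of pro1 was 0.52 without replicate 1 and -0.0019 without replicate 2.

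The gap between the red1Δ libraries was not spread evenly over the genes. Replicate 2 exceeded replicate 1 by more than 0.5 on the log2 scale for 15 of 39 members (38.5%) and for 12.5% of all tested features, and for 6 of 9 arg, 3 of 6 lys, 2 of 5 his, 2 of 3 ser, 1 of 3 leu and 1 of 2 pro genes but for none of the 11 ilv, trp, thr and aro genes. No member differed by that much in either direction between the mug174Δ libraries or between the WT libraries. Of all tested features 3.36% exceeded the limit with mug174Δ replicate 1 over replicate 2, and 2.94% with WT replicate 1 over replicate 2. The lack of such members is near these shares. The widest ratios were 2.44-fold for arg5, 2.29-fold for lys4, 2.21-fold for lys3, 2.10-fold for arg12 and 2.07-fold for his4, genes of 3 pathways chosen here after their values were seen. At the other end ser2, lys7, his1 and aro2 were higher in replicate 1. Counted reads were nearly equal in both, at 17307849 and 17290747, and the reads on members made up 1.52% and 2.15% of them.

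Genes with a wide gap in red1Δ also differed a little between the mug174Δ libraries. All 15 were higher in replicate 1 than in replicate 2 of mug174Δ, by a median of 0.17 on the log2 scale, while over all tested features the median of that difference was 0.00. Of the other 24 members 16 were higher in mug174Δ replicate 1, with a median of 0.06. Between the WT libraries 10 of the 15 were higher in replicate 1, with a median of 0.09 (0.02 over all features), and 15 of the other 24. The mug174Δ differences were much smaller than those of red1Δ, at most 1.32-fold (arg5).

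**Figure D4:**
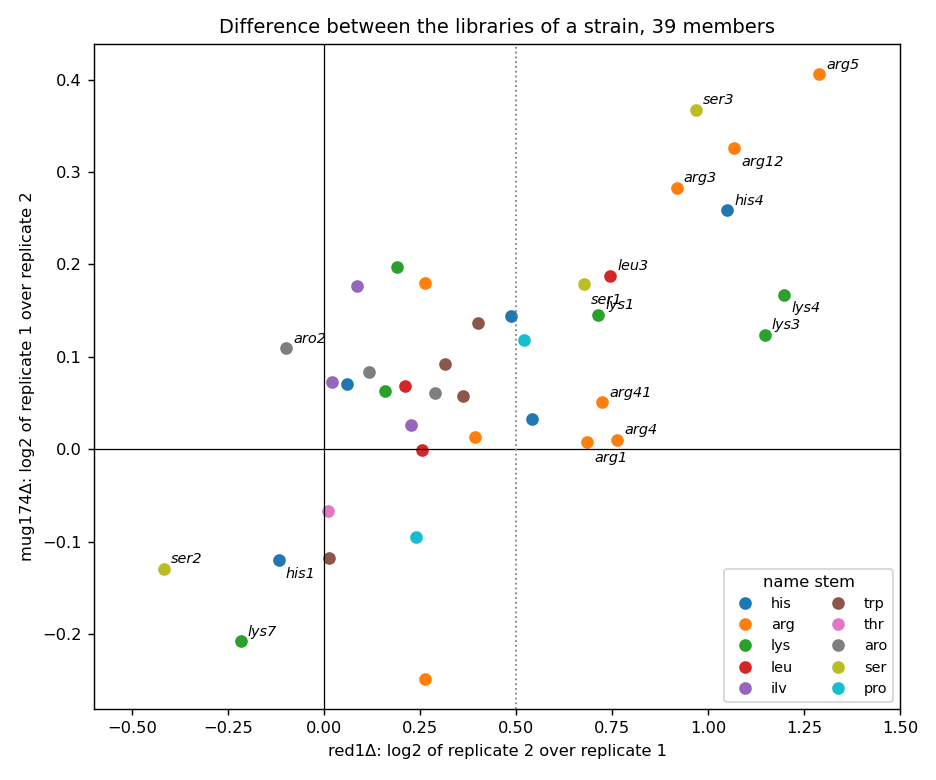
Difference between the libraries of a strain for the 39 members, as log2(RPKM + 0.5), with red1Δ replicate 2 over replicate 1 on the x axis and mug174Δ replicate 1 over replicate 2 on the y axis; the dotted line marks 0.5. The 15 genes right of the line, arg5, lys4 and lys3 farthest, are all above 0 on the y axis, and ser2 and lys7 are at the lower left.

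Red1 and its complex act on unspliced and meiotic transcripts among others, so members were also read by their introns. The RPKM values refer to coding segments without introns, so spliced and unspliced RNA cannot be told apart in them. The 10 members with introns in the coding region, his1, his3, his4, arg1, lys7, ilv6, trp3, aro7, ser2 and pro2, had a median log2 fold change of -0.29 in mug174Δ, and the 29 tested members without introns had the same median of -0.29. In red1Δ the medians were -0.14 and 0.09. These red1Δ medians join libraries that differed, and they were not computed with either library left out. Replicate 2 was the higher for 35 of the 39 members. The exceptions were ser2, lys7 and his1, which have introns, and aro2, which has none. Without replicate 2 the log2 fold changes in red1Δ were -0.24 for his4, with an intron, and -0.51 for lys4, without. Without replicate 1 they were 0.81 and 0.68. Of the 10 with introns 2 were lowered and 1 raised in mug174Δ, and of the 29 without 5 and 0 (5.53% and 19.8% of all features). In red1Δ 4 of the 10 were lowered and 1 raised, and of the 29 without introns 4 and 2 (7.33% and 48.4%). The lowered with median ratio scaling were 5 of 10 and 8 of 29 in mug174Δ and 7 of 10 and 9 of 29 in red1Δ (10.1% and 19.0% of all features), and without a mug174Δ or WT library at most 1 of 10 and 0 of 29 were lowered in mug174Δ. The 2 sets were not tested against each other. Among those with introns his1 and ser2 stood at the low end and aro7 at the high end.

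The core of the budding yeast Gcn4 site, TGACTC on either strand, was looked for in the 250 bases before and 50 bases after the annotated transcript start. It was found in 2 of 40 members with such a window (5.0%) and in 293 of 4335 coding genes (6.76%). The matches are shown because they are the only ones among the members, with the motif in capitals, in the direction of the gene and from the RefSeq genome (ASM294v3, both genes on the minus strand). In his7 the motif starts 84 bases before the transcript start and reads as its reverse complement (printed stretch chrII:2042259-2042288). In leu3 it starts 216 bases before the transcript start (printed stretch chrII:2690811-2690840).
his7: gagatctcttttGAGTCAgaaaatctgacg
leu3: caacgctcatctTGACTCtatagtgtaaaa
The 2 genes did not behave alike, since his7 was among the steadiest members and leu3 among those that differed between the red1Δ libraries (1.67-fold). A match is no more than a run of letters, and its lack elsewhere says nothing of a factor.

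Neighbouring pathways were read from lists of names. Of 12 tested genes of other amino acid synthesis and nitrogen entry, 4 were lowered and 0 raised in mug174Δ (5.53% and 19.8% of all features) and 1 was lowered and 0 raised in red1Δ (7.33% and 48.4%). Scaled by median ratios, 6 and 5 were lowered (10.1% and 19.0% of all features). The fit of only mug174Δ and WT raised 31.4% and lowered 10.8% of all features. In mug174Δ 1 was raised and 6 were lowered without either red1Δ library. Without a mug174Δ or WT library 0 to 1 were lowered in mug174Δ. In red1Δ the calls of this list changed with the red1Δ library left out. The serine hydroxymethyltransferase gene shm1 had 677 and 725 RPKM in mug174Δ and 1413 and 1311 RPKM in red1Δ, against 1683 and 1707 RPKM in WT, a log2 fold change of -1.27 ± 0.10 (adjusted p = 0.0040) in mug174Δ and -0.32 ± 0.10 (adjusted p = 0.039) in red1Δ. In mug174Δ shm2 (-0.79) and the glutamine synthetase gene gln1 (-0.82) fell as well. In this list asparagine synthetase (asn1) was 2.60-fold higher in red1Δ replicate 2 than in replicate 1. The aspartate aminotransferase gene caa1 was 2.29-fold and the glutamate dehydrogenase gene gdh1 1.92-fold higher. These genes were chosen after their values were seen, and the list as a whole was not counted. Over all tested features 12.5% exceeded 0.5 on the log2 scale.

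Amino acid breakdown and uptake genes had calls of their own. Of 4 tested catabolic genes put2, for the second enzyme of proline breakdown, was lowered in both mutants (-0.64 and -0.91) and car2 in red1Δ (-0.88). That made 1 of 4 lowered in mug174Δ and 2 of 4 in red1Δ, where 5.53% and 7.33% of all features were lowered. Of 11 permeases and vacuolar transporters 2 were lowered in mug174Δ, vba2 (-1.27) and aat1 (-1.16), and in red1Δ the same 2 were lowered (-1.22 and -1.94) and 3 raised, meu22 (0.47) among them, but only 1 of the 11 was raised with median ratio scaling. The 2 of 11 lowered stand beside 5.53% of all features in mug174Δ and 7.33% in red1Δ. The 3 of 11 raised stand beside 48.4% of all features, and the 1 of 11 with median ratio scaling beside 18.1%. Of 8 genes of amino acid starvation control the eIF2α kinase gene hri2 was raised in mug174Δ (0.58, not called with median ratio scaling), which made 1 of 8 against 19.8% of all features. In red1Δ 3 of the 8 were raised, hri1 (0.85) and hri2 (0.52) among them, against 48.4% of all features. Another 2 were lowered, tif211 for eIF2α itself (-0.51) among them, against 7.33%. With median ratio scaling 1 was raised and 2 lowered in red1Δ (18.1% and 19.0% of all features). Of these 8, 0 were called raised or lowered in red1Δ without WT replicate 2, and 2 raised and 0 lowered without WT replicate 1. In mug174Δ the calls of all 3 of these lists fell to 0 or 1 without a mug174Δ or WT library. Without either red1Δ library the raised and lowered in mug174Δ were 1 and 2 of the catabolic genes, 3 and 3 of the transporters and 3 and 2 of the starvation genes, where the fit of only mug174Δ and WT raised 31.4% and lowered 10.8% of all features. fil1, named for its role and not by its values, had 52.4 and 43.7 RPKM in mug174Δ and 47.0 and 46.6 RPKM in red1Δ, against 34.5 and 44.1 RPKM in WT, and was called in neither.

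Histidine and leucine were among the supplements of the medium, and so were adenine and uracil. Of 15 tested ade and ura genes 4 were lowered and 0 raised in mug174Δ (5.53% and 19.8% of all features), with ade2 (-0.90), ade4 (-0.89) and ade1 (-0.71) ahead, and 8 were lowered and 0 raised in red1Δ (7.33% and 48.4%), led by ade5 (-1.03), ade4 (-0.88) and ade3 (-0.62). In red1Δ against mug174Δ 5 were lower and 0 higher (3.28% and 16.1% of all features). After median ratio scaling 7 were lowered in mug174Δ and 12 in red1Δ (10.1% and 19.0%). The fit of only mug174Δ and WT raised 31.4% and lowered 10.8% of all features. The fits without either red1Δ library raised 2 and lowered 7 in mug174Δ. Without a mug174Δ or WT library 0 were lowered in mug174Δ and, without a WT library, 5 to 6 in red1Δ, while the 5 between the mutants fell to 0 without a mug174Δ library and to 2 without red1Δ replicate 2 or a WT library.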

How the data were processed

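RNA was measured in 6 libraries, 2 each of mug174Δ, red1Δ and WT. The authors deposited RPKM per feature, computed without scaling factors between libraries. The study's methods give poly(dT) enrichment, strand-specific libraries and HISAT2 alignment to ASM294v2, whereas the labels give rRNA depletion and the submitters' processing notes list FastQC 0.11.6, STAR 2.5.3a and StringTie 1.3.1c, and the read counter and annotation release were not given in the sources used here. Deposited log2 fold changes and p-values of the authors (each mutant against WT) were not used. Columns with values of other samples numbered 0.

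Low RPKM values were whole multiples of 1 read for 100% of values (tolerance 0.01 reads), which gave the counted reads per library. Members and lists were chosen with earlier results of these data known. The text gives values by library for the most abundant member of each stem, for up to 3 called members per stem and comparison with the smallest p, and for those called between the mutants, and from other lists names up to 3 called genes by smallest p.

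Features with at least 1 RPKM in 2 or more libraries (5949) were fitted with limma 3.58.1 (R 4.3.3) on log2(RPKM + 0.5), a scale that understates changes of low genes, with 1 mean per strain over all 6 libraries, a trended prior, 2-sided tests and Benjamini-Hochberg adjustment over all features. The 15 alternatives were other pseudocounts and filters, median ratio scaling, no trend, voom on the recovered reads, a replicate block, only the strains compared and each library left out. The fit was tested on simulated data. Sequences and gene roles came from the RefSeq genome ASM294v3, where 41 of 42 members had the same coding coordinates (not lys2) and trp1 and ilv1 had no promoter window.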

Additional observations from a re-analysis of the deposited data

Results flagged for a closer look

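The direct comparison of the mutants, red1Δ against mug174Δ, gave 3 members whose change against WT differed between them, tested as a contrast in the limma fit. The phosphoserine phosphatase gene ser2 was lower in red1Δ by a log2 fold change of -0.77 (limma adjusted p = 0.023), and both red1Δ libraries (41.2 and 30.7 RPKM) lay below both mug174Δ libraries (58.3 and 63.9 RPKM). The acetolactate synthase regulatory subunit gene ilv6 had -0.44 (adjusted p = 0.035), again with both red1Δ libraries lower. The isopropylmalate dehydratase gene leu2 had 0.59 (adjusted p = 0.019), with both red1Δ libraries higher. All 3 calls were lost when any mug174Δ or WT library was left out and when only the red1Δ and mug174Δ libraries were fitted, and all 3 held without either red1Δ library and with median ratio scaling.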

How the results depend on the processing

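Pseudocounts of 0.1 and 1, no filter, a filter at 5 RPKM and voom changed no count of called members by over 1.5 times. Median ratio scaling gave 13 lowered in mug174Δ against WT, 0 raised and 16 lowered in red1Δ against WT, and 4 lowered in red1Δ against mug174Δ. Fitting only the strains compared gave 21 lowered in mug174Δ against WT and 0 raised and 0 lowered in red1Δ against mug174Δ (4 and 3 at an unadjusted p under 0.05). Leaving out 1 library at a time gave 0 to 1 raised and 0 to 21 lowered in mug174Δ against WT, 0 to 17 raised and 4 to 14 lowered in red1Δ against WT, and 0 to 24 raised and 0 to 3 lowered in red1Δ against mug174Δ, where the 24 came without red1Δ replicate 1. Among single genes in red1Δ against WT, arg12 turned to -0.53 and lys4 to -0.51 without red1Δ replicate 2 (0.54 and 0.68 without replicate 1), and his7 turned to -0.32 and trp4 to -0.066 with median ratio scaling. The cause was not tested. With the replicate number as a block, red1Δ against mug174Δ had 2 raised members in place of 1, with arg7 added, mug174Δ against WT lost ilv5 and red1Δ against WT gained arg7. The numbers were not taken to pair the libraries, since the deviations of same-numbered libraries over all features had r = 0.06 between mug174Δ and red1Δ, 0.19 between mug174Δ and WT and 0.23 between red1Δ and WT (over the 39 members -0.69, 0.56 and -0.28), and the labels name no shared day. Of 1755 fold changes of single members under the alternatives, 1505 kept direction and side of the threshold, 103 became called and 72 lost the call. The sign turned for 75, of which 4 had a call on one side (those above) and 71 had none, and 31 of the 75 came with median ratio scaling and 25 without red1Δ replicate 2. Counted reads were 16565908 or more a library, and each strain had 2 libraries.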
